A study of Mus musculus with 8 samples.

Results

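The colony-stimulating factors and their receptors were followed in primary murine microglia that had been exposed to lipopolysaccharide (LPS), a component of the outer membrane of Gram-negative bacteria. The set holds 9 of the 52636 gene identifiers in the count table, and they were taken by name as the ligands and receptors of this family. These are the ligand genes Csf1, Il34, Csf2 and Csf3, and the receptor genes Csf1r, Csf2ra, Csf2rb, Csf2rb2 and Csf3r. Each was found by its Ensembl identifier through the GENCODE vM21 symbols.

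Microglia are the resident macrophages of the brain, and their survival depends on signalling through the CSF-1 receptor, a tyrosine kinase that binds CSF-1 and interleukin 34. Granulocyte-macrophage colony-stimulating factor (GM-CSF, encoded by Csf2) acts through a ligand-specific alpha chain and a signalling beta chain that it shares with interleukin 3 and interleukin 5. Granulocyte colony-stimulating factor (G-CSF, encoded by Csf3) acts through a receptor of a single chain, best known from neutrophils and their precursors.

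The libraries came from 8 samples of wild-type (WT) microglia, of strain C57BL/6 in the labels and from C57BL/6N pups by the study's methods, 4 of which received LPS at 5 µg/ml and 4 vehicle, in both cases for 24 h. The cells had been shaken off mixed glial cultures of neonatal mouse brain, in which they sit on a layer of astrocytes. All cultures, vehicle included, were kept in 10% fetal bovine serum with 10 ng/ml of recombinant murine CSF-1, so every library comes from cells with an external supply of the ligand of CSF1R. The labels number the replicates 1 to 4 in each group and call them biological, but do not say which came from separate animals or cultures. P-values therefore measure the spread between these samples.

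Library totals ranged from 20071921 to 30604447 counts. Replicates 2 and 4 lay closer to each other than to the other libraries of their group, with a root mean square log2 difference of 0.18 in vehicle and 0.16 in LPS, where the widest pairs stood at 0.40 and 0.63. Their counts still differed by more than counting noise, with a chi-square per degree of freedom of 11.0 in vehicle and 6.98 in LPS, and they were kept as separate samples. Of 9 microglial markers, 5 were called lower after LPS and 2 higher, against 33.8% and 30.3% of all tested genes. Cx3cr1 and Trem2 fell by 7.26 and 5.36 on the log2 scale, and Itgam and Ptprc rose by 1.94 and 0.62. Aif1 and Tmem119 were not called. Levels are given as CPM, read counts made comparable between library sizes, after scaling by trimmed mean of M values (TMM), and changes as log2 fold changes of LPS over vehicle from edgeR's quasi-likelihood test with Benjamini-Hochberg adjustment over 13847 genes. Scaling by plain library totals shifted the median gene by -0.677 on the log2 scale relative to TMM and turned a split of 4191 higher and 4686 lower genes into 1988 higher and 8457 lower, and is therefore named where it changes a member.

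Of the 9 genes, 8 had enough counts to be tested. Of these, 4 were called higher after LPS (Csf1, Csf2, Csf3 and Csf3r), 2 were called lower (Csf1r and Csf2rb2), and Csf2ra and Csf2rb passed the threshold in neither direction. Over all genes, 30.3% of the tested genes were called higher and 33.8% lower, or 64.1% in either direction, so being called was common in this contrast. The 4 LPS and 4 vehicle libraries did not overlap for 6 of the 8 tested members, against 60.2% of all tested genes. In these bulk samples, fewer cells that express a gene and less RNA per cell cannot be told apart.

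**Figure D1:**
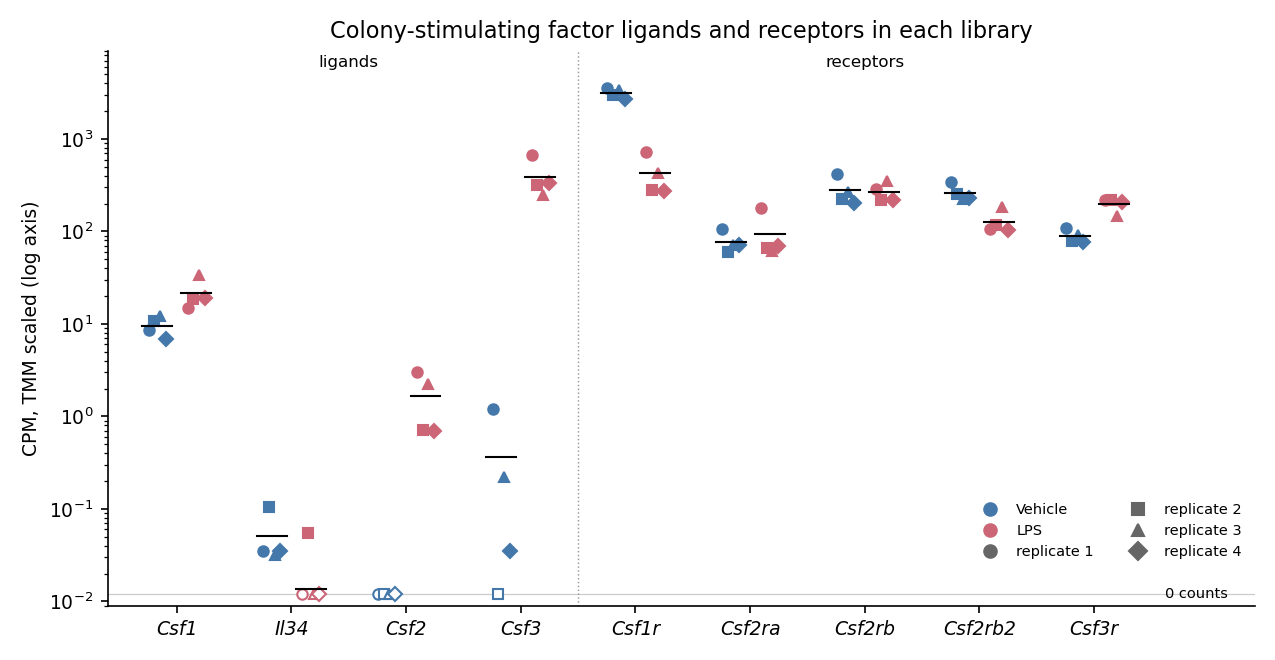
CPM after TMM scaling of each of the 9 genes in each library on a log axis, with vehicle in blue, LPS in red, a marker shape for each replicate number, open symbols for 0 counts and a line at the group mean. Csf1r lies at or above 2732.6 CPM in every vehicle library and at or below 728.1 CPM in every LPS library, and Csf3 runs from at most 1.19 CPM to at least 246.4 CPM.

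The transcripts of 2 of the ligands carry dense AU-rich repeats in their 3′ UTR, which are well known to bind proteins that destabilise short-lived cytokine mRNAs. They are shown because Csf2 and Csf3 were the tested members nearest to 0 in vehicle and the most increased after LPS. The sites are given 5′ to 3′ on the transcript strand, with the pentamer ATTTA in capitals, and are the 30-base stretches of each UTR with the most pentamers. They lie at chr11:54247329-54247358 (minus strand), chr11:98702984-98703013 (plus strand) and chr3:107741109-107741138 (minus strand) of GRCm38, each within the 3′ UTR.
Csf2: tttttaaatATTTATTTATTTATTTATTTA
Csf3: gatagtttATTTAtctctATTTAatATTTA
Csf1: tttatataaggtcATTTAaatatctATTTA

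The pentamer occurs 9 times in the 317 bases of the Csf2 3′ UTR, a density of 28.4 per kb that only 0.0321% of 15578 coding genes reach. Csf3 has 6 in 669 bases, or 8.97 per kb, a density reached by 1.4% of genes. Csf1, with 4 in 2111 bases and 1.89 per kb, stood near the median of 1.25 per kb, as did Csf1r at 1.8 per kb, and Il34 held a single pentamer in 439 bases. The 3′ UTRs of Csf2ra, Csf2rb, Csf2rb2 and Csf3r held none. The letters are a description of the annotated transcripts, and mRNA turnover was not measured here.

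**Figure D2:**
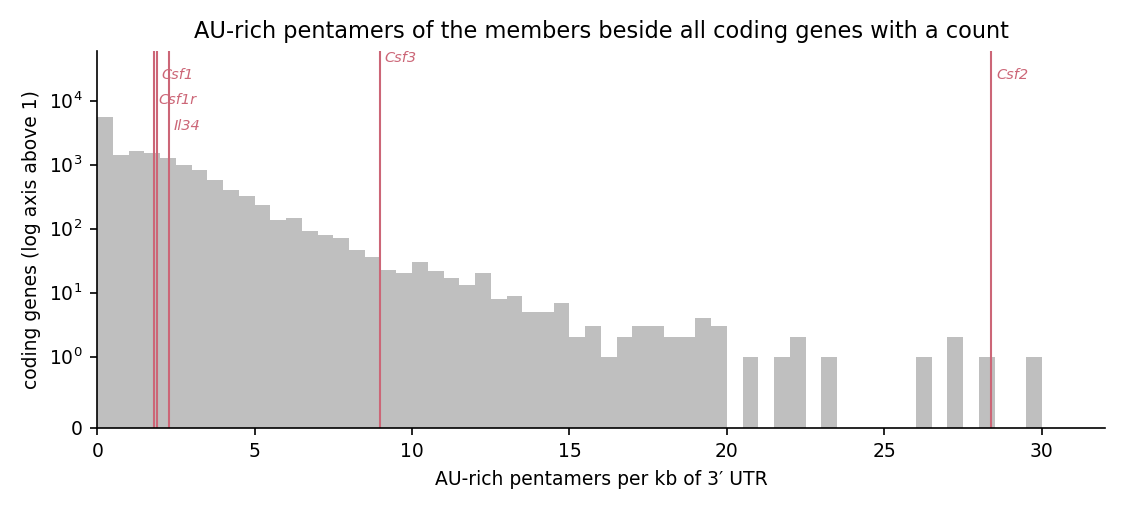
Histogram of the density of the AU-rich pentamer per kb of 3′ UTR over 15578 coding genes with a count, with the number of genes on an axis that is logarithmic above 1, and red lines at the members that hold at least 1 pentamer. Csf2 at 28.4 and Csf3 at 8.97 per kb lie in the sparse upper tail, and Csf1, Csf1r and Il34 lie among the bulk of the genes.

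Among the ligands, Csf3 mRNA rose strongly after LPS. The rise of Csf2 is only bounded from below, so these rises cannot be ranked. Csf3 had 34, 0, 7 and 1 counts in vehicle replicates 1 to 4 and 11242, 5818, 5284 and 6130 counts in LPS replicates 1 to 4. The groups were far apart, and the highest library in each was replicate 1. The log2 fold change was 10.07 ± 0.84 (SE, n = 4 per group, adjusted p = 6.90e-06, edgeR), and it rested in part on vehicle replicate 1, without which it was 12.05. The gene lies at chr11:98701263-98703629 on the plus strand and overlaps no other annotated gene.

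GM-CSF mRNA appeared after LPS but stayed scarce. Csf2 had 0 counts in all 4 vehicle libraries, and a count of 0 allows up to 3 counts per library, a mean of 0.103 CPM. The LPS libraries held 51, 13, 48 and 13 counts, or 3.05, 0.708, 2.24 and 0.703 CPM. Replicates 1 and 3 were high and the closely similar replicates 2 and 4 low, and all were above vehicle. Set against the floor of 3 counts per library, the LPS mean was at least 16.3-fold higher, and the gene was called higher (adjusted p = 6.69e-04, edgeR). Csf2 lies at chr11:54247271-54249667 on the minus strand, and 12% of its exonic bases are shared with the antisense gene Gm12223, which averaged 1.0 count per library.

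Both groups expressed Csf1, the gene of the growth factor that was also in the medium, at a low level. Vehicle libraries held 8.51, 10.7, 12.1 and 6.96 CPM and LPS libraries 14.8, 18.7, 33.6 and 19.2 CPM. The groups did not overlap on this scale, and LPS replicate 3 stood highest. Csf1 rose by 1.17 ± 0.27 on the log2 scale (SE, n = 4 per group, adjusted p = 0.00364, edgeR). With plain library totals the change was 0.47 (adjusted p = 0.081, edgeR) and the groups overlapped, so the call on Csf1 depends on the scaling. The gene lies at chr3:107741048-107760469 on the minus strand.

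Il34, the other ligand of CSF1R, made chiefly by neurons and keratinocytes, was barely detected. Vehicle libraries held 1, 3, 1 and 1 counts and LPS libraries 0, 1, 0 and 0 counts. All values were at or under the floor of 3 counts, and the gene (chr8:110741829-110805924, minus strand) was not tested. Of its other known receptors, Ptprz1 and Sdc1, neither was called, with log2 fold changes of -1.20 ± 0.71 and -0.20 ± 0.71 (SE) and adjusted p of 0.166 and 0.813 (edgeR). Ptprz1 was called lower with the replicate block (-1.15, adjusted p = 0.0081, edgeR) and with library totals, where its log2 fold change was -1.85.

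The receptor for both ligands changed most among the receptors. Csf1r stood at 3584.8, 3024.2, 3383.2 and 2732.6 CPM in vehicle and at 728.1, 277.7, 427.2 and 272.0 CPM in LPS. Every LPS library lay far below every vehicle library, and LPS replicate 1 was the highest of its group. The LPS mean was 13.4% of vehicle, and Csf1r fell by 2.90 ± 0.32 on the log2 scale (SE, n = 4 per group, adjusted p = 4.24e-05, edgeR). With library totals it fell by 3.57. Csf1r lies at chr18:61100598-61132149 on the plus strand, and 15.1% of its exonic bases are shared with Hmgxb3 on the opposite strand. Whether the counting used strand is not stated in the sources used here, but Hmgxb3 had between 636 and 913 counts per library and Csf1r between 5028 and 106670.

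Within each library, the balance of ligand to receptor mRNA moved by more than its spread between libraries. The log2 ratio of Csf1 to Csf1r counts was -8.40 ± 0.31 in vehicle and -4.25 ± 0.91 in LPS (SD, n = 4). It does not depend on library scaling. The values were -8.72, -8.14, -8.12 and -8.61 in vehicle and -5.61, -3.89, -3.67 and -3.83 in LPS. All LPS libraries were above all vehicle libraries, with replicate 1 apart from the other LPS libraries. The difference of 4.15, or 17.7-fold, gave p = 0.0286 in a two-sided exact permutation test, the smallest that 4 against 4 libraries allow, and 0.0381 after adjustment over the 4 ratios tested. Without any 1 of the 4 LPS libraries the adjusted p was 0.0571, with no overlap between groups in any case. Paired by replicate number, all 4 pairs moved the same way, but sign flips of 4 pairs cannot reach the threshold.

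Of the receptor chains for GM-CSF, the alpha chain did not pass the threshold. Csf2ra stood at 107, 59.7, 70.9 and 70.8 CPM in vehicle and at 181.6, 66.1, 61.4 and 70.3 CPM in LPS. The groups overlapped, and replicate 1 was the highest library in both. The log2 fold change was 0.30 ± 0.35 (SE, n = 4 per group, adjusted p = 0.477, edgeR), and -0.22 without LPS replicate 1. The sign also turned with library totals, at -0.35 (adjusted p = 0.412, edgeR). The gene lies at chr19:61223957-61228429 on the minus strand.

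Mice carry a pair of beta chain genes side by side on chromosome 15. Csf2rb encodes the common beta chain and Csf2rb2 a beta chain that serves interleukin 3 alone. They lie at chr15:78325752-78353847 (plus strand) and chr15:78282507-78305721 (minus strand). Their sequences are close enough to matter for counting. Of all 50-base windows, the length of the reads, 18.4% of the main Csf2rb transcript were identical to a stretch of Csf2rb2 and 19.0% of the main Csf2rb2 transcript to a stretch of Csf2rb. Reads from these windows have no unique alignment and would be lost from both genes, since the authors counted uniquely aligned reads. Within 2 mismatches the shares were 46.2% and 47.8%. A window identical in both and a neighbouring one that differs are shown to make this visible, 5′ to 3′ on the transcript strand, with differing bases in capitals. The identical window lies at chr15:78335207-78335256 and chr15:78298180-78298229, and the differing one at chr15:78335240-78335289 and chr15:78298147-78298196 (GRCm38, Csf2rb first).
Csf2rb, identical window: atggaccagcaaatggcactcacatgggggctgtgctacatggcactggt
Csf2rb2, identical window: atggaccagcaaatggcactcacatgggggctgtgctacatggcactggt
Csf2rb, differing window: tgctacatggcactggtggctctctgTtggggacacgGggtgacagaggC
Csf2rb2, differing window: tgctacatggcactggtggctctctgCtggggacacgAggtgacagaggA

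The interleukin 3 beta chain fell while the common beta chain was not called. Csf2rb2 stood at 345, 252, 222 and 230.8 CPM in vehicle and at 105.7, 116.9, 182.9 and 103.2 CPM in LPS. The groups did not overlap, with LPS replicate 3 nearest to vehicle. Csf2rb2 fell by 1.04 ± 0.22 on the log2 scale (SE, n = 4 per group, adjusted p = 0.00201, edgeR).

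Csf2rb stood at 421.5, 222.5, 264 and 203.1 CPM in vehicle and at 287.9, 219.6, 348.5 and 216.5 CPM in LPS. The groups overlapped, with vehicle replicate 1 and LPS replicate 3 highest. The log2 fold change was -0.05 ± 0.25 (SE, n = 4 per group, adjusted p = 0.867, edgeR). With library totals it was -0.74 (adjusted p = 0.0147, edgeR), which passes the threshold, and the groups did not overlap, so the absence of a call on Csf2rb depends on the scaling.

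The ratio between the pair does not. Csf2rb2 made up 45.0%, 53.1%, 45.7% and 53.2% of the counts of both genes in vehicle and 26.9%, 34.7%, 34.4% and 32.3% in LPS. Its mean share was 49.2% ± 4.52 in vehicle and 32.1% ± 3.64 in LPS (SD, n = 4), without overlap. On the log2 scale the ratio of Csf2rb2 to Csf2rb was -0.04 ± 0.26 in vehicle and -1.09 ± 0.25 in LPS (SD, n = 4), a difference of -1.04 (exact permutation test, two-sided p = 0.0286, adjusted 0.0381, and adjusted 0.0571 without any 1 of the 4 LPS libraries). The ratio of Csf2ra to Csf2rb differed by only 0.19 (exact permutation p = 0.657), and leaving out LPS replicate 1 turned it to -0.13.

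For the remaining pair, Csf3 exceeded Csf2 in every LPS library, with log2 ratios of 7.77, 8.75, 6.77 and 8.83. The vehicle ratios of 6.11, 0.00, 3.91 and 1.58 compare counts of Csf3 with a Csf2 count of 0, so they are set by the 0.5 added to each count. The difference of 5.13 (exact permutation p = 0.0286, adjusted 0.0381, and adjusted 0.0762 without any 1 of the 4 LPS libraries) was 5.71 when 1 was added in its place. With Csf2 at 0 the vehicle ratios are at best lower bounds. In vehicle replicate 2 both genes had 0 counts, so its ratio of 0.00 bounds nothing. Neither a direction nor a fold can therefore be read from this test.

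**Figure D3:**
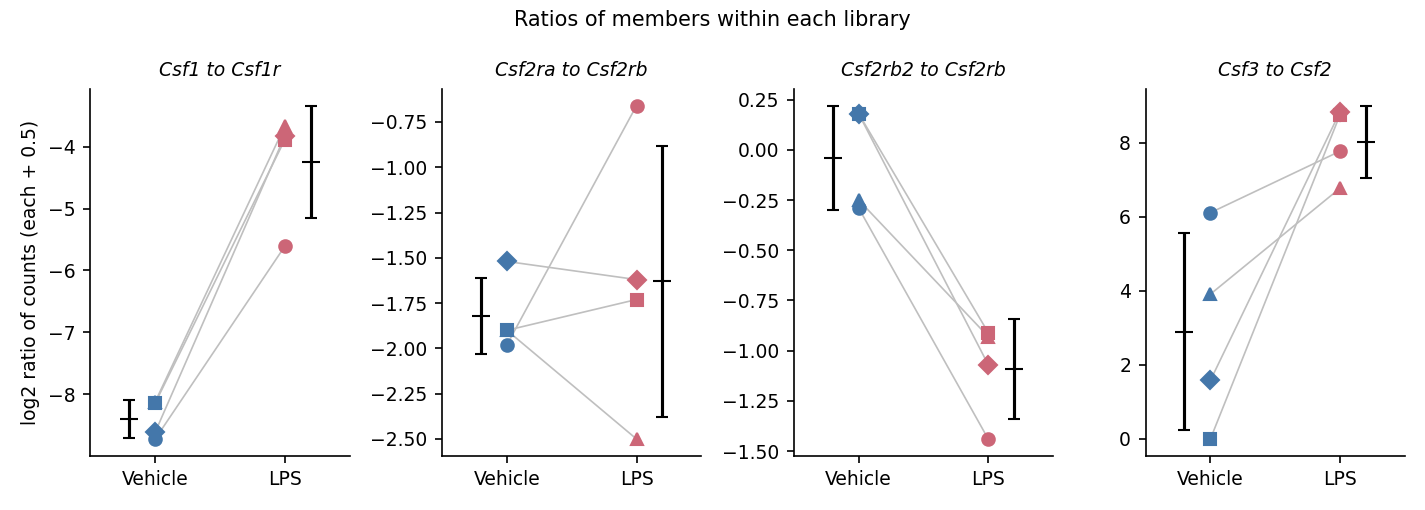
Log2 ratios of the counts of 4 pairs of genes in each library, after adding 0.5 to each count, with lines joining the same replicate number and bars for the mean ± SD of each group (n = 4); each panel has its own vertical axis. Csf1 to Csf1r and Csf2rb2 to Csf2rb separate without overlap (-8.40 against -4.25 and -0.04 against -1.09), Csf2ra to Csf2rb overlaps, and the vehicle values of Csf3 to Csf2 rest on a Csf2 count of 0.

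The G-CSF receptor rose together with its ligand. Csf3r stood at 108.4, 79.6, 90.5 and 77.3 CPM in vehicle and at 220.9, 217.7, 148.7 and 207.1 CPM in LPS. All LPS libraries were above all vehicle libraries, and LPS replicate 3 was the lowest of its group. Csf3r rose by 1.16 ± 0.16 on the log2 scale (SE, n = 4 per group, adjusted p = 1.66e-04, edgeR). With library totals the change was 0.50 (adjusted p = 0.0316, edgeR) and the groups overlapped. Csf3r lies at chr4:126024550-126044440 on the plus strand, and 10.5% of the 50-base windows of its transcripts also occur in other genes.

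Markers of neutrophils, cells in which Csf3r is high, were close to absent. Of 6 neutrophil markers, 5 (Ly6g, Elane, Mpo, Ngp and Retnlg) had at most 3 counts in any library. The list summed to between 0.0317 and 0.107 CPM in vehicle and between 0.325 and 2.99 CPM in LPS, there mostly from Camp, which had 50, 6, 11 and 6 counts in LPS and at most 3 in vehicle, a mean at least 10.1-fold higher than the floor. The part of neutrophils in the change of Csf3r was not tested.

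Divided by the length of the main transcript, the levels of the members can be set in order. In vehicle, Csf1r led with 676.7 ± 80.5 CPM per kb (SD, n = 4), followed by Csf2rb at 56.7 ± 20.2, Csf2rb2 at 55.4 ± 11.9 and Csf2ra at 41.7 ± 11.1. These last 3 overlapped in their ranges. Csf3r followed at 25.5 ± 4.08 and Csf1 at 2.3 ± 0.552 CPM per kb, each apart from its neighbours. Csf3, Il34 and Csf2 were all below 1 CPM per kb in every vehicle library.

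In LPS the order began with a ligand. Csf3 stood at 277.4 ± 135.1 CPM per kb (SD, n = 4), above Csf1r at 90.7 ± 45.5 in every comparison of libraries. Csf1r, Csf3r (57.1 ± 9.7), Csf2rb (54.7 ± 12.8), Csf2ra (51.3 ± 31.3) and Csf2rb2 (26.8 ± 7.94) followed, each overlapping its neighbour. Csf1 at 5.17 ± 1.98 CPM per kb overlapped Csf2 at 2.09 ± 1.46, and Il34 came last. The place of the beta chains is approximate, since reads from their shared windows were not counted.

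PU.1, encoded by Spi1, is a transcription factor that drives many myeloid receptor genes, and the letters of its core site were looked for near the receptor genes. RefSeq promoter windows (GRCm38, from 250 bases before to 50 after the start) were matched for 5 members, namely Csf1, Csf2, Csf2ra, Csf2rb2 and Csf3r. The core GAGGAAG was searched on both strands and occurs in 13.6% of 32851 promoters. Csf2ra held 2 matches that overlap each other, Csf2rb2 held 2 and Csf3r 1, while the windows of Csf1 and Csf2 held none. The stretches are shown on the gene's strand with the core, or its reverse complement in Csf2rb2, in capitals, and lie at chr19:61228409-61228448 (minus), chr15:78305866-78305905 (minus) and chr4:126024557-126024596 (plus).
Csf2ra: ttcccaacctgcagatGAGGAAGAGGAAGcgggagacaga
Csf2rb2: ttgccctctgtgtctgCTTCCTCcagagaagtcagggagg
Csf3r: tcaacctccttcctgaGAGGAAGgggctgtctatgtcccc

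These 3 receptors share the letters but not a direction, since Csf2rb2 fell, Csf3r rose and Csf2ra was not called. The NF-kB letters GGGANNNNCC, found in 20.7% of promoters, matched 3 times in Csf1, where 2 matches overlap, once in Csf3r, once in Csf2, and not in Csf2ra or Csf2rb2. For Csf2 the RefSeq start lies 232 bases upstream of the GENCODE start, which falls outside the window. Matches or their absence in the Csf2 window therefore do not describe the sequence next to the GENCODE start. For Csf3r the RefSeq start lies 109 bases downstream of the GENCODE start, and the PU.1 stretch shown lies inside the GENCODE gene. The AP-1 letters TGANTCA occurred in none of the 5 windows. The same held for the letters TATAAA of a TATA box, while the C/EBP letters TTGCNNAA occurred once in Csf2 and in none of the other 4. These motifs occur in 7.81%, 13.6% and 10.8% of all promoters.

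The other genes of these pathways were taken as 68 genes in 9 lists, of which 64 were tested, 31 were called higher and 15 lower. Over all tested genes, 30.3% were called higher and 33.8% lower, or 64.1% in either direction. The median log2 fold change of the pathway genes was 0.34 against -0.11 for all tested genes. The split and the median depend on scaling, since library totals shifted the median gene by -0.677. The counts of a list under library totals are given beside it where they differ.

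The relatives of CSF1R among the type III receptor tyrosine kinases and their ligands had 1 of 7 tested genes called higher and 1 lower (library totals, 1 and 4, and with the replicate block, 1 and 3). Kitl, the stem cell factor that activates KIT, fell from 124.2 to 29.8 CPM (log2 fold change -2.06 ± 0.35, SE, adjusted p = 5.74e-04, edgeR). Flt3l, the ligand of FLT3, rose from 1.35 to 5.64 CPM (2.05 ± 0.22, adjusted p = 3.05e-05, edgeR). Flt3 itself was at or under 3 counts in every library. In the beta common family Il3, Il5 and Il5ra were at or under 3 counts in every library, and Il3ra, which pairs with both beta chains, stood at 25.1 and 26.2 CPM (0.06 ± 0.39, adjusted p = 0.899, edgeR).

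CSF1R can be shed from the cell surface by ADAM17, which matures with the help of iRhom proteins, and is ubiquitinated by CBL. Of 7 genes of shedding and turnover, 2 were called higher and 3 lower (library totals, 1 and 5). Adam17 fell by 0.58 ± 0.11 and Adam10, a related protease, by 1.00 ± 0.12 on the log2 scale (SE, adjusted p = 0.00128 and 6.61e-05, edgeR). The iRhom genes moved apart. Rhbdf2, the myeloid form, rose from 63.3 to 365.1 CPM (2.53 ± 0.23), while Rhbdf1 fell from 5.15 to 1.24 CPM (-2.07 ± 0.41).

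Of 20 genes whose proteins carry the CSF1R signal, 12 were called higher and 5 lower, but with library totals 4 were higher and 10 lower, so most of the smaller increases rest on the scaling. The tyrosine kinase genes Syk and Lyn rose under both. Syk went from 238.1 to 1255.2 CPM (2.40 ± 0.22) and Lyn from 212.2 to 1087.9 CPM (2.36 ± 0.15). Tyrobp, the adaptor DAP12 through which CSF1R and TREM2 signal, fell by 1.06 ± 0.12 on the log2 scale (SE, adjusted p = 5.11e-05, edgeR).

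Signals from the GM-CSF and G-CSF receptors pass through JAK kinases and STAT factors. Of 7 such genes 6 were called higher and none lower, while with library totals 2 were higher (Jak2 and Stat3) and 2 lower (Tyk2 and Stat5b). Jak2 rose from 67.4 to 773.1 CPM (3.52 ± 0.15, adjusted p = 1.55e-07) and Stat3 from 183.9 to 851.8 CPM (2.21 ± 0.12, adjusted p = 6.61e-07, edgeR). Jak1 rose by 0.89 ± 0.13, and by 0.20 (adjusted p = 0.0689, edgeR) with library totals. Stat5b was not called at -0.06 ± 0.13.

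Among 6 feedback and target genes of STAT5 and STAT3, 4 were called higher and none lower (library totals, 4 and 1). Socs3, the inhibitor that STAT3 induces, rose from 12.5 to 1747.8 CPM (7.13 ± 0.36, adjusted p = 4.01e-07, edgeR). Socs1 rose from 1.77 to 24.6 CPM (3.79 ± 0.38) and Pim1 from 27.3 to 357 CPM (3.71 ± 0.20). Cish and Socs2, classical STAT5 targets, were not called, with log2 fold changes of 1.71 ± 0.79 and -1.62 ± 0.79 and adjusted p of 0.083 and 0.0957 (edgeR). Cish was called higher with the replicate block (1.84, adjusted p = 0.0139, edgeR). Socs2 was called lower with library totals (-2.35, adjusted p = 0.0201, edgeR).

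The transcription factors known to act on the Csf1r gene went in both directions, with 3 of 8 higher and 3 lower (library totals, 2 and 4). Cebpa fell from 185 to 8.86 CPM (log2 fold change -4.38 ± 0.14, SE, adjusted p = 4.25e-08, edgeR). Ets2 rose from 117.3 to 861.8 CPM (2.88 ± 0.15) and Cebpb from 29.6 to 138.1 CPM (2.22 ± 0.34). Spi1 rose by 0.64 ± 0.20 (adjusted p = 0.0183, edgeR), a change that was -0.01 with library totals, and Runx1 and Irf8 were not called. With library totals Runx1 was called lower (-0.55, adjusted p = 0.00166, edgeR). Which of these bears on the fall of Csf1r was not tested.

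Of the early response genes to CSF-1, 3 of 6 were higher and 3 lower, but none was higher with library totals. Leaving out 1 library gave 2 to 3 called higher and 2 to 3 lower. Ccnd1, the cyclin of early cell cycle progression, fell from 248.3 to 32.4 CPM (-2.94 ± 0.31, adjusted p = 2.93e-05, edgeR) and Fos from 125 to 33.4 CPM (-1.91 ± 0.23, adjusted p = 6.49e-05, edgeR). Ccnd2 rose from 26.8 to 72.1 CPM (1.43 ± 0.34), and its groups overlapped on library totals.

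**Figure D4:**
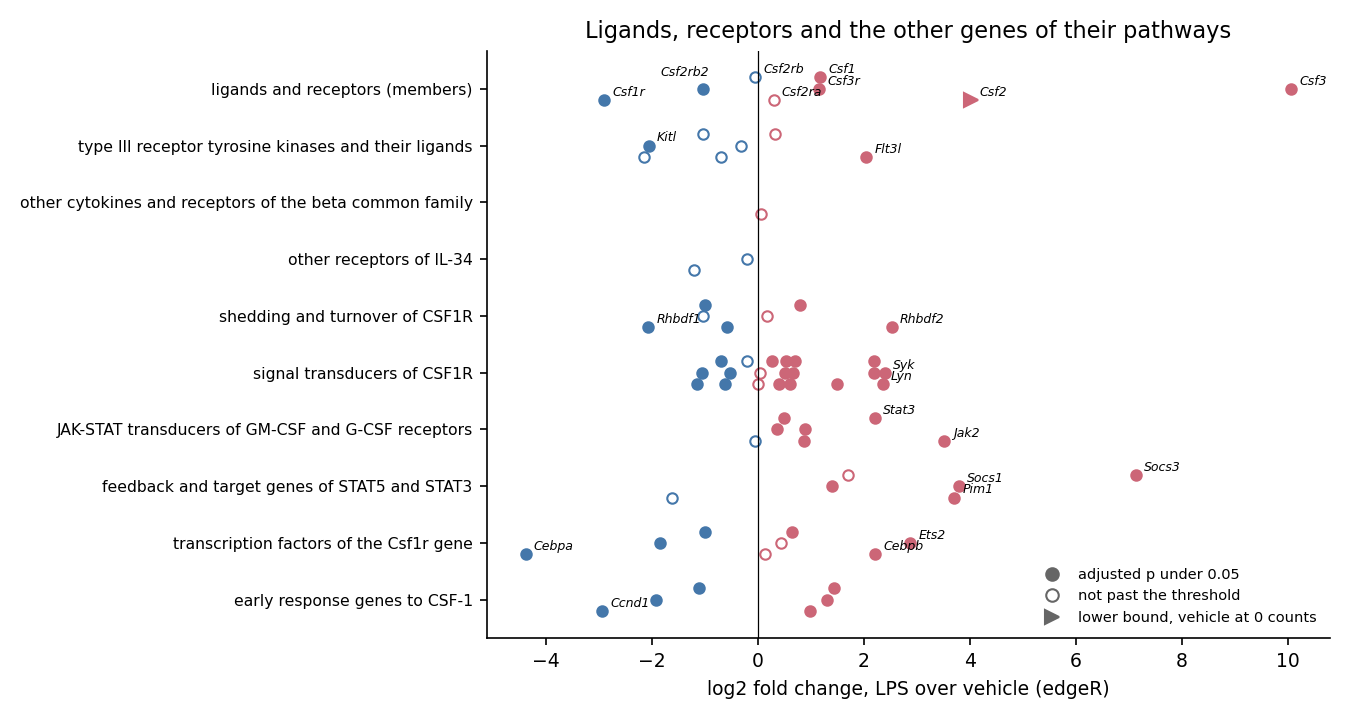
Log2 fold changes of LPS over vehicle (edgeR, TMM scaling) for the tested members in the top row and the tested genes of 9 pathway lists below, with red for values above 0, blue for values below 0, filled symbols for adjusted p under 0.05 and a triangle for Csf2 at its lower bound of 4.03. Csf3 at 10.07 and Socs3 at 7.13 lie farthest to the right and Cebpa at -4.38 farthest to the left.

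Cells other than microglia can be carried over from the mixed glial cultures, and their markers were read in the same libraries. The 8 astrocyte markers summed to 18.2 to 43.3 CPM in vehicle and 39.4 to 119.1 CPM in LPS, with 3 of 7 tested lower (Gfap, Aqp4 and Aldh1l1) and only Gja1 higher, from 0.873 to 48.6 CPM with its maximum of 98.1 CPM in LPS replicate 1. The 8 oligodendrocyte lineage markers summed to 92.9 to 146.1 CPM in vehicle and 17.6 to 23.5 CPM in LPS, with 4 of 6 tested lower. The 5 endothelial markers summed to 31.6 to 81.4 and 127 to 217.1 CPM, with 2 of 3 tested higher. Most of the sum was Flt1, which macrophages also express, and Cdh5 rose from 0.948 to 7.5 CPM (2.98 ± 0.28, adjusted p = 1.37e-05, edgeR), while Cldn5 had 0 counts in every library and Tie1 at most 1.

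The 5 fibroblast and pericyte markers summed to 0.497 to 3.52 CPM in vehicle and 5.3 to 21.3 CPM in LPS, with Dcn called higher while Col1a1 and Col1a2 did not exceed 3 counts in any LPS library. The 5 neuron markers summed to 5.99 to 18 and 2.38 to 9.22 CPM, with 2 of 3 tested lower. Border macrophage markers, 4 in number, summed to 558.2 to 1006.3 and 36.8 to 71.4 CPM. Most of the sum was Mrc1, which fell by 4.07 ± 0.24 on the log2 scale (SE, adjusted p = 8.73e-07, edgeR). Pf4 fell from 38.9 to 14.1 CPM, while Lyve1 had at most 1 count and Cd163 at most 0.698 CPM in any library. Of the T cell, B cell and mast cell markers, Cd3e, Cd3d and Cd3g had 0 counts throughout, and each list summed to at most 7.14 CPM. Cd4 fell from 4.75 to 0.597 CPM (-2.99 ± 0.43, SE, adjusted p = 2.25e-04, edgeR). Ms4a1 rose from 0.23 to 0.879 CPM (1.91 ± 0.44, SE, adjusted p = 0.00366, edgeR), and Kit was not called. The part of these cells in the changes of the ligands and receptors was not tested.

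The genes whose pattern over the 8 libraries was most like each member were taken from the 8010 genes whose log2 CPM averaged 3 or more, by the root mean square distance of centred log2 CPM. For Csf1r these were Dapk1, Peli2, Tlr2 and Lpar6, at distances of 0.24 to 0.26. For Csf3 they were S100a8, Lcn2, Serpinb2 and Tarm1, but at wider distances of 0.60 to 0.76, so that few genes followed it closely. Csf3r had near matches in Zfand2b, Myh9, Tcirg1 and Nectin2 at 0.09 to 0.10, and Csf1 in Arel1, Pcgf5, Uaca and 4933412E12Rik at 0.09 to 0.15.

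Csf2rb2 was nearest to Fbxl20, Galnt7, Xylt1 and Mdp1 (0.14 to 0.16) and Csf2rb to Btg1, Scamp1, Lrpap1 and Nus1 (0.10 to 0.20). The neighbours of Csf2ra, which was high in replicate 1, were Vcl, Plec, Dip2a and Foxp4 (0.19 to 0.23). All libraries enter these distances, and a small distance for a gene called higher or lower mainly reflects the contrast between the groups.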

How the data were processed

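Raw counts per Ensembl gene were deposited for 8 libraries in 1 table. The authors made these counts by GSNAP alignment of 50-base single-end reads to GRCm38 with HTSeqGenie, keeping uniquely aligned reads, without normalization. Library kit and sequencer are given differently in the labels and in the study's methods, and neither annotation release nor strand setting is given in the sources used here. Of 52636 identifiers, 52489 had a GENCODE vM21 symbol, and the other 147 held 0.00512% of counts. Groups came from the labels.

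Differential expression was tested with edgeR 4.0.16 in R 4.3.3 (TMM, filterByExpr with minimum count 10 and total 15, quasi-likelihood, two-sided, adjusted p threshold 0.05), and 4 ratios of counts, each plus 0.5, with exact permutation tests over 70 divisions. The SE of a log2 fold change was the absolute change divided by the square root of the F statistic of the quasi-likelihood test. The fit was tested on simulated data. Tables and figures used pandas 2.3.3, numpy 2.4.6, scipy 1.17.1 and matplotlib 3.10.9 (Python 3.11.15). Counts of at most 3 were the floor, which covers counting error only. Per-kb levels used the main GENCODE coding transcript, and AU-rich pentamers were counted in 3′ UTRs of at least 50 bases.

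The members and gene lists were chosen with earlier results of these data known. All members are named, and from each list the called genes with the 3 largest absolute changes, with others named after their values were seen. Some named items are not reported here. Alternatives were DESeq2 1.42.0, other filters and scalings, the replicate block and leaving out each library. Library totals and summing replicates 2 and 4 were added after seeing the data. Each library was centred on its group's mean. A vehicle and an LPS library that share a number then correlated at 0.373, 0.196, 0.171 and 0.108 (replicates 1 to 4, across 8010 genes), all above 0.1. Vehicle 2 with LPS 4 and vehicle 4 with LPS 2 also passed 0.1, at 0.146 and 0.137, so replicates 2 and 4 are not told apart. The numbers were treated as pairs in the block. The hint came from the data, and the sample identifiers in the labels also run in order of replicate number, but the labels state no pairing.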

Additional observations from a re-analysis of the deposited data

Results flagged for a closer look

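In LPS replicate 1, Csf2ra stood at 181.6 CPM while the other 3 LPS libraries lay between 61.4 and 70.3 CPM, a gap of 0.926 of the group's range, past Dixon's critical value for 4 samples. In the same library the log2 ratio of Csf1 to Csf1r was -5.61 and between -3.89 and -3.67 in the others, a gap of 0.886 of the range. Replicate 1 was also the highest vehicle library for Csf2ra, at 107 CPM. Chance alone gives such a gap in about 1 in 20 groups of this size. Each group was searched for every member above the floor and for all 4 ratios, so such gaps can arise by chance among them.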

How the results depend on the processing

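The calls on Csf1r, Csf2, Csf3, Csf2rb2 and Csf3r kept direction and threshold under every alternative in which the gene could be tested. A filter of at least 10 counts in every library removed Csf2 and Csf3 and left 2 members called higher. Library totals took Csf1 to 0.47, no longer past the threshold, Csf2ra to -0.35 and Csf2rb to -0.74, now called lower. Csf2rb, at -0.05, turned to just above 0 (0.00) with DESeq2 and (0.00) with DESeq2 size factors in edgeR. Leaving out 1 library gave Csf2rb -0.20 to 0.25, Csf2ra -0.22 to 0.55, Csf3 9.69 to 12.05, and ratios of 3.95 to 4.60 (Csf1 to Csf1r), -1.13 to -0.93 (Csf2rb2 to Csf2rb), 4.16 to 6.20 (Csf3 to Csf2) and -0.13 to 0.48 (Csf2ra to Csf2rb). With any 1 LPS library left out, the adjusted p was 0.0571 for the first 2 of these ratios, whose own exact p stayed the smallest possible, and 0.0762 for Csf3 to Csf2, since 1 adjustment covers all 4 ratios. With the replicate block, the ratios of 4.15, -1.04 and 5.13 had an adjusted p of 0.167 (sign flips), the smallest that 4 pairs allow after adjustment. No call on a member changed with the block. Genes called lower went from 1 to 3 among the type III receptor kinases and their ligands and from 0 to 1 among the other IL-34 receptors. They went from 3 to 4 in shedding and turnover. Genes called higher went from 4 to 5 among the feedback and target genes, from 12 to 11 among the CSF1R signal genes and from 3 to 2 among the early response genes. All genes called numbered 9044 with the block, 7497 with replicates 2 and 4 summed and 8031 to 9314 without 1 library, against 8877. Where a value turned, the cause was not tested. Depth limits Il34, Csf2 and the vehicle level of Csf3, and the spread between 4 libraries limits the rest.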
